A study of Homo sapiens with 6 samples.

Results

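END-seq, which sequences the ends of DNA double-strand breaks, was used to map breaks in HCT116 cells, an established human colorectal carcinoma line, after short exposure to camptothecin (CPT). The regions described here are late break clusters at gene starts, which are places near a protein-coding 5' end where both 20 min libraries held a break site and the 10 min libraries held no break site shared by both. The study has 6 samples, namely 2 untreated controls (Ctrl), 2 cultures given 10 µM CPT for 10 min (CPT10) and 2 given 10 µM CPT for 20 min (CPT20). All of them are the same unmodified line, and the sample titles write 20 µM for the longer exposure where the treatment text gives 10 µM for 20 min. The control libraries served as the input in peak calling and their own values were not analysed here, so no untreated level can be set beside the values below. The lists hold positions of DNA ends and no expression, and the identity of the cells could not be checked from them.

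A break leaves a peak of reverse-strand reads on its left and a peak of forward-strand reads on its right. In each library a reverse peak was joined to the closest forward peak that overlapped it or began under 150 bp downstream. The stretch from the start of the reverse peak to the end of the forward peak is called a site. Sites found in both replicates of a time by an overlap of at least 1 bp were called replicated. Replicated 20 min sites were late where they overlapped no replicated 10 min site, and persistent where they did. Replicated 10 min sites with no replicated 20 min site were called transient. Chromosomes 1 to 22 held 1822 late, 726 persistent and 2780 transient clusters at least 1 Mb from assembly gaps of 1 Mb or more. Of the late clusters, 800 had their midpoint 5 kb or less from a protein-coding 5' end, and these are the 800 members of 5328 clusters in all. They were chosen by the peak lists of all 4 treated libraries, so that their presence at 20 min and their weaker representation at 10 min are conditions of the choice and not results. The same distance rule gave 413 persistent and 589 transient clusters at gene starts and left 1022 late clusters elsewhere. The label holds only in this restricted sense, since most members did hold peaks at 10 min, as described below.

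Topoisomerase I (Top1) relaxes the supercoils that build up ahead of and behind a transcribing RNA polymerase by cutting one strand, letting the helix turn and closing it again. CPT binds the enzyme while it is joined to the cut DNA and delays closure, so that nicks accumulate where Top1 works, and these can become double-strand breaks when they meet a replication fork, a nuclease or another nick. The first kilobases of active genes are a place of frequent RNA polymerase pausing and release and of high Top1 activity.

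The sequences at the break positions of the first 5 clusters that could be shown, by their rank in the weaker 20 min library, are given here because they are among the strongest late clusters of the data and differ in base composition. Each is 300 bases of hg19 in the sense direction of the gene it is named for, read from chr17:78118799-78119098 on the minus strand for *EIF4A3*, chr19:18393210-18393509 on the minus strand for *JUND*, chr10:43931833-43932132 on the plus strand for *ZNF487*, chr17:61906125-61906424 on the minus strand for *FTSJ3* and chr3:155589659-155589958 on the plus strand for *GMPS*. Capitals mark the bases between the facing edges of the reverse and the forward peak. Where the peaks overlapped, these run from the start of the forward peak to the end of the reverse peak.
EIF4A3: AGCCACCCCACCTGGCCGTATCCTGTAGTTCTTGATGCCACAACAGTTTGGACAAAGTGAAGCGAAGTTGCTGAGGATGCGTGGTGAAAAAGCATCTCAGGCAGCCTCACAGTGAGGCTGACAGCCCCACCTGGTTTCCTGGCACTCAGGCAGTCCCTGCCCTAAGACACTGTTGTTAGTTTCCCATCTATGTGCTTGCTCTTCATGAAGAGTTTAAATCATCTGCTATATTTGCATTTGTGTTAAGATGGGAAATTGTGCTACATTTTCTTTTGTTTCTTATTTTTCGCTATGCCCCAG
JUND: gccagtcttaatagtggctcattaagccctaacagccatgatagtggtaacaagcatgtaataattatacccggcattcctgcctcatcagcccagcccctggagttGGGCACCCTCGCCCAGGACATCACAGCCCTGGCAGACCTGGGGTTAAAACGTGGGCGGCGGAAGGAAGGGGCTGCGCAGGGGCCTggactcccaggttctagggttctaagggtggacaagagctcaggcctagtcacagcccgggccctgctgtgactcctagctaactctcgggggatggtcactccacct
ZNF487: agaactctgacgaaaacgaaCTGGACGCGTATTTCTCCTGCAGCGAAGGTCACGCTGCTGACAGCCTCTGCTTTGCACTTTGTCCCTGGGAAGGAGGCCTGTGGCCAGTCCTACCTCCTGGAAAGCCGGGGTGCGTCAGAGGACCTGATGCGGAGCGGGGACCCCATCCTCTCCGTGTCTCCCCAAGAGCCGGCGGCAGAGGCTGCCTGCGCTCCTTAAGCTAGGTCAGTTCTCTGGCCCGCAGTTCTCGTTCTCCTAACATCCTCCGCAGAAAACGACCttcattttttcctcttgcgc
FTSJ3: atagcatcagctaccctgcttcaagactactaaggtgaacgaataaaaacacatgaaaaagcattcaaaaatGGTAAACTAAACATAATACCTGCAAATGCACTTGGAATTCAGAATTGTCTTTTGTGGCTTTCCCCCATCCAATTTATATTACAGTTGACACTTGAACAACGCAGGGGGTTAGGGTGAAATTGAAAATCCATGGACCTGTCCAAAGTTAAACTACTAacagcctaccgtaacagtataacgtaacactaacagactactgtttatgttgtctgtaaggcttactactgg
GMPS: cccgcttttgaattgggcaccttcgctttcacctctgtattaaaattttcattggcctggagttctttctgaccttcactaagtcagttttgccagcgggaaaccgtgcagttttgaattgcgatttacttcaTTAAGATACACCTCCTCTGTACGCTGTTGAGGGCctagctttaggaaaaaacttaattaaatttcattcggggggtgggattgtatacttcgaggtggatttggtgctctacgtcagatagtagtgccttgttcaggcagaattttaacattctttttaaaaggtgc

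The capitals follow the 20 min library in which the pair of peaks ranked better, replicate 2 for *EIF4A3* and replicate 1 for the other 4. The 2 peaks overlapped there in 4 of these 5 clusters and left a gap of 34 bases at *GMPS*. In the other 20 min library those of *GMPS* overlapped and those of *ZNF487* left a gap of 36 bases. At *EIF4A3* the marked stretch is 1088 bases, more than is shown, so that all of its letters are capitals. The forward peak began and ended before the reverse peak there, and the stretch reaches beyond the cluster on both sides. The peaks therefore shared fewer bases than are marked. The overlap was 85 bases at *JUND*, 156 at *FTSJ3* and 260 at *ZNF487*. The GC content ran from 38% at *FTSJ3* to 59% at *ZNF487*, whose window held 19 CpG dinucleotides. G exceeded C in the window of *GMPS* (67 against 59), and C exceeded G in the other 4.

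The value given for a peak is its fold, the height of the peak summit in fragments over the height expected by the peak caller, each with 1 added. The lists held 286491 to 826744 peaks per library and strand, and the sites per library numbered 102733 and 54794 at 10 min and 85813 and 18831 at 20 min. The second replicate had the fewer sites at both times. Because a replicated site needs both libraries, the smaller 20 min library set the upper limit on the number of late clusters and the smaller 10 min library the limit on how many of them could be recognised as already present. With the remaining library standing for its time, the count of 800 became 12197 without 20 min replicate 2, 2600 without 20 min replicate 1, 495 without 10 min replicate 2 and 620 without 10 min replicate 1. With the classes formed within same-numbered libraries it became 410. The expected height was the same along the whole list of a library and strand, at 0.727 to 1.44 fragments. A fold is therefore not a ratio to the untreated cells at the same place. It was also not scaled by the mouse cells that the study added as a standard to normalise read counts. No listed peak had a summit below 4 fragments, so a place with no listed peak can still hold breaks below that height.

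Most late clusters at gene starts carried break signal in the 10 min libraries that fell short of a replicated site. A site of at least one 10 min library overlapped 465 of 800 members (58.1%, 95% Wilson interval 54.7 to 61.5). Replicate 1 alone held it in 268, replicate 2 alone in 149, and 48 held a site of each replicate that did not overlap the other. In a further 97 members a 10 min library had peaks on both strands that did not pair into a site. In 207 peaks were listed but no single 10 min library held both strands, though the replicates could hold opposite strands. No 10 min peak of either strand was listed in 31 members (3.88%, interval 2.74 to 5.45), among them *NHP2*, which encodes a protein of the H/ACA snoRNPs that modify ribosomal RNA. The members therefore differ among themselves far more in their 10 min signal than the name late conveys.

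**Figure D1:**
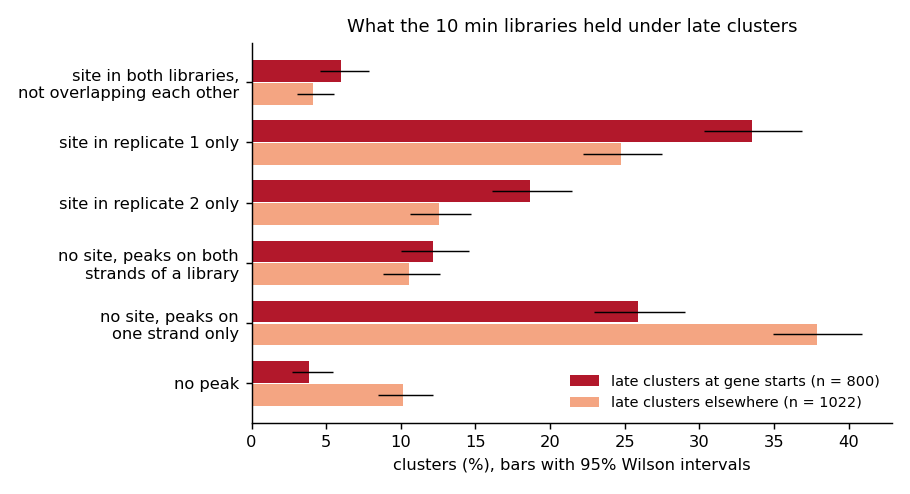
Share of late clusters (horizontal axis, %, with 95% Wilson intervals that cover counting error only) by what the 10 min libraries held at the same place, for 800 clusters at gene starts and 1022 elsewhere. The bar for a site in replicate 1 alone is the longest at gene starts, at 33.5%, and the bar for no peak is the shortest, at 3.88%. Strands are counted within each library.

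The same 10 min lists held less at late clusters elsewhere, which is given as a description since these lists entered the rule. A 10 min site overlapped 58.1% of the members and 423 of 1022 late clusters elsewhere (41.4%, interval 38.4 to 44.4), a difference of 16.7 percentage points. Late clusters at gene starts were also wider, with a median of 938.5 bp against 748.5 bp, which gives a site more room to overlap. Within width classes the shares were 44.4% against 25.1% under 500 bp, 48.7% against 35.3% from 500 to 1000 bp and 68.2% against 59.2% from 1000 to 2000 bp. In the 52 and 30 clusters of 2000 bp or more the order was the opposite, at 84.6% against 96.7%. With peaks of a −log10 q of at least 3 the difference was 6.75 points, and with at least 10 it was 7.46 points. Without 20 min replicate 2 it was 10.9 points.

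The median folds of the peaks that were listed differed little between the times. The median fold of the highest reverse peak in a member was 7.47 and 5.79 in the 10 min replicates, over the 587 and 483 members with such a peak, and 7.73 and 6.46 in the 20 min replicates, over all 800. The medians of forward peaks were 7.37 and 5.77 at 10 min, in 540 and 454 members, and 7.17 and 5.90 at 20 min. Only peaks that passed the caller's threshold enter these medians, and replicate 1 had the higher median at each time. Persistent clusters at gene starts stood higher in every library, with reverse medians of 10.4, 8.11, 11.4 and 8.61 in the same order. They were also wider, with a median of 1996 bp against 938.5 bp, which leaves room for more peaks from which the highest is taken.

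Ordered library by library, a minority of the members were higher at 20 min throughout. In 147 of 800 (18.4%) the highest peaks of both 20 min libraries exceeded those of both 10 min libraries on both strands, a place without a listed peak counting as lowest, which compares with 17.9% of all 2548 late and persistent clusters. The share was 27.0% in late clusters elsewhere and 5.81% in persistent clusters at gene starts. In 290 members (36.3%) neither strand had both 20 min libraries above both 10 min libraries, and no member had both of them below on both strands. The rule used these lists, and nothing is read from the counts beyond the values. Within replicate 1 the 20 min peaks were the higher on both strands in 414 members, within replicate 2 in 487, and in both replicates in 260.

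The 20 members with the best rank in their weaker 20 min library show the range. At 20 min every one of them had peaks on both strands in both libraries. A site of a 10 min library overlapped 18 of them, against 58.1% of all 800 members. A peak in all 4 of the 10 min lists was found in 11, against 19.4%. The 20 min folds were above the 10 min folds on both strands in 7, against 18.4%. The rank used the 20 min peaks, so high 20 min folds follow from the choice. The orders of the times given below are descriptions. All 9 members that lacked a peak in a 10 min list lacked it in replicate 2, and 1 of them also in replicate 1.

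*EIF4A3* encodes an RNA helicase of the exon junction complex, and its cluster at chr17:78118421-78119397 had its midpoint 2041 bp downstream of the 5' end in intron 1. Its reverse fold was 13.7 and 6.37 at 10 min and 14.5 and 15.1 at 20 min. Its forward fold was 9.42 with no listed peak in the other replicate at 10 min, against 14.3 and 13.9 at 20 min. Both 20 min libraries lay above both 10 min libraries on each strand, by a small margin on the reverse strand.

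*JUND*, an AP-1 transcription factor, had its cluster 1320 bp upstream of the 5' end at chr19:18393075-18394429. The reverse fold was 13.3 with no listed peak in replicate 2 at 10 min, and 18.2 and 11.3 at 20 min. The forward fold was 4.50 and 8.65 at 10 min and 19.3 and 11.8 at 20 min. The forward peaks separated the times and the reverse peaks did not, since the first 10 min replicate lay above the second 20 min replicate.

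*GMPS*, the last enzyme of GMP synthesis, held its cluster in intron 1 at 1576 bp downstream, chr3:155589389-155590641. The reverse fold was 4.57 and 8.11 at 10 min and 11.4 and 8.61 at 20 min. The forward fold was 5.32 with no listed peak in replicate 2 at 10 min, and 12.5 and 9.65 at 20 min. Every 20 min value was above every 10 min value.

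*ZNF487* names the cluster nearest to a 5' end among these, 166 bp upstream at chr10:43931545-43932700. Its reverse fold was 4.57 and 4.63 at 10 min and 11.8 and 16.1 at 20 min, and its forward fold was 5.32 with no listed peak in replicate 2 at 10 min and 12.5 and 9.12 at 20 min. The times did not overlap on either strand.

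*DCP1A*, a decapping factor of mRNA decay, and *PTMA*, which encodes prothymosin alpha, were the 2 of these 20 with no 10 min site. At *DCP1A*, 865 bp downstream in intron 1, the reverse strand had no listed peak in replicate 1 and a fold of 5.79 in replicate 2 at 10 min, against 11.8 and 8.07 at 20 min. Its forward fold was 4.09 with no listed peak in replicate 2 at 10 min, and 13.9 in both replicates at 20 min. The *PTMA* cluster in intron 1 held a 10 min peak in every list, at reverse folds of 12.04 and 5.21 and forward folds of 10.2 and 7.498, but the peaks did not pair, and its 20 min folds were 20.5 and 9.69 on the reverse and 15.7 and 8.05 on the forward strand.

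At 4 others of the 20, given here, a 10 min library had a reverse fold above 20, as it did at *MT2A* below. *PDCD2*, linked to ribosomal protein assembly, had reverse folds of 23.3 and 51.5 at 10 min and 25.004 and 43.6 at 20 min, which overlapped. *THUMPD2* had reverse folds of 22.8 and 13.9 at 10 min and 28.2 and 32.8 at 20 min, and forward folds of 10.2 and 12.7 at 10 min and 10.8 and 13.4 at 20 min, so that the reverse strand separated the times and the forward strand did so within each replicate only. *PNN*, a splicing-associated nuclear speckle protein, had a reverse fold of 29.5 with no listed peak in replicate 2 at 10 min and of 30.005 and 17.8 at 20 min, higher at 20 min within each replicate. *ACTN4*, an actin crosslinker, had reverse folds of 27.0 and 8.11 at 10 min and 14.1 and 10.2 at 20 min, with opposite orders in the 2 replicates, and forward folds of 10.2 and 7.498 at 10 min and 10.8 and 8.58 at 20 min. The first 3 of these 4 clusters overlapped a 10 min site in 1 replicate only, and that of *ACTN4* overlapped a site of each replicate, which did not overlap each other.

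*TUBB4B*, a beta-tubulin, had forward folds of 9.83 and 12.7 at 10 min and 20.6 and 22.5 at 20 min. Its reverse folds were 9.55 and 7.53 against 10.9 and 9.69, so that the times were apart on both strands. *MT2A*, a metallothionein that binds zinc and copper, had reverse folds of 20.8 and 12.7 at 10 min and 17.3 and 9.15 at 20 min, in the opposite order within each replicate. *CEBPB*, a leucine zipper transcription factor, had reverse folds of 11.2 and 4.63 at 10 min and 15.5 and 9.15 at 20 min. The reverse and forward values of 1 cluster thus often gave different orders of the libraries.

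**Figure D2:**
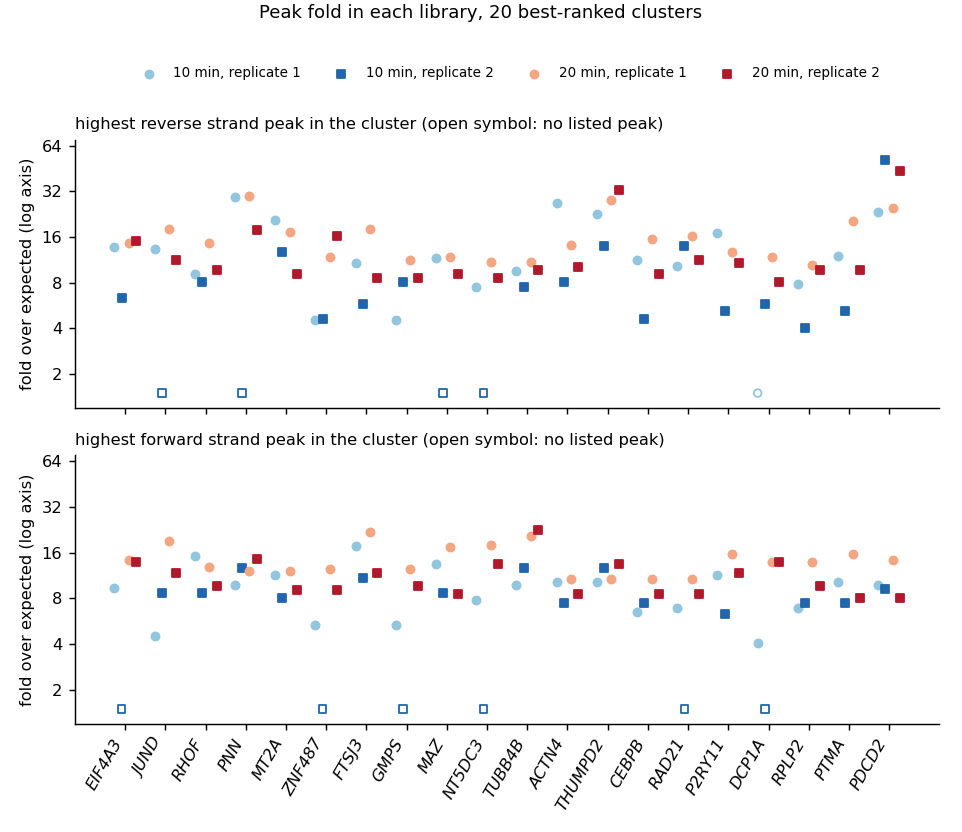
Fold over the expected height (vertical axis, log scale) of the highest reverse and forward peak in each of the 20 best-ranked clusters, named by the nearest gene, in the 2 libraries of each time. Open symbols at the foot mark a strand and library with no listed peak, all of them 10 min libraries and mostly replicate 2.

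A member needs overlapping sites of both 20 min replicates, which keeps their break positions near each other by construction. Taking the best pair of peaks of each library, the shift between the centres of their break positions had a median of 200.5 bp (quartiles 82.5 and 397.6) over the 800 members. It was at most 50 bp in 137 members and at most 150 bp in 317. A member was made of 1 site in each library in 731 cases. The smaller −log10 q of the pair was at least 3 in both libraries in 546 members and at least 10 in 26.

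The members lay mostly inside the genes. The midpoint was downstream of the nearest 5' end in 632 of 800 (79.0%, Wilson interval 76.0 to 81.7). The window around the 5' end that chose them was symmetric, but the sides were not equally open. Where a second gene starts upstream on the other strand, a midpoint beyond that start counts as downstream of the second gene. No upstream member had such a gene within 1 kb. The first kilobase downstream held 142 clusters, the second 199, the third 135 and the remaining distance to 5 kb 156. The median position was 1415 bp downstream, and in bins of 500 bp the highest count, 108, was from 1000 to 1500 bp and the lowest downstream count within 3 kb, 39, was directly after the 5' end. Upstream of the 5' end lay 168 clusters, 58 of them in the last kilobase.

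Persistent clusters at gene starts also lay mostly on the downstream side, at 331 of 413 (80.1%, interval 76.0 to 83.7), and the difference of -1.15 percentage points did not pass the test (two-sided Fisher's exact test, adjusted p = 0.690 over 8 comparisons of cluster classes). The clusters are the units of this and the following class tests, and all come from the same 4 libraries, so the p-values do not cover the difference between cultures. The difference to persistent clusters was -8.68 points without 20 min replicate 1 and -16.5 points without 20 min replicate 2. It had the opposite sign without 10 min replicate 2, at 0.196. In these settings unreplicated sites of the remaining library stand for its time. Without a 20 min library, late clusters are thus unreplicated sites, while persistent ones still overlap a replicated 10 min site. Transient clusters were downstream in 431 of 589 (73.2%, interval 69.5 to 76.6), which is 5.83 points lower than late clusters (Fisher's exact test, adjusted p = 0.0332). The difference to transient clusters was lost under 5 other settings and took the opposite sign under 4 more, among them peaks of a −log10 q of at least 3, where it was -2.21 points (exact test, adjusted p = 0.745). Without 10 min replicate 1 it was 16.1 points and without 10 min replicate 2 it was 18.9. The sign was the opposite without 20 min replicate 1, at -0.907, and without 20 min replicate 2, at -7.09.

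**Figure D3:**
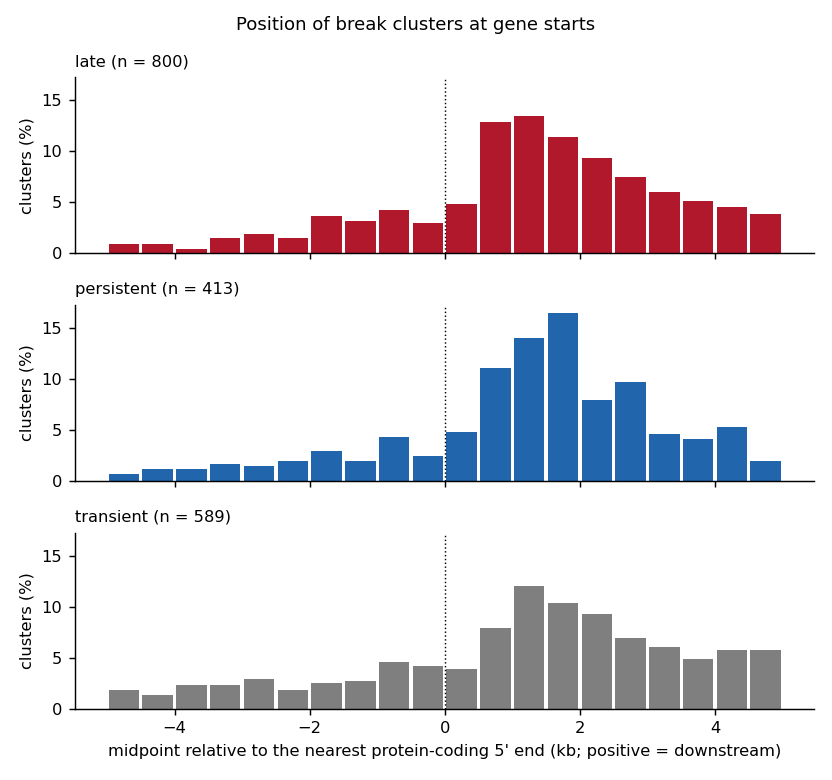
Position of cluster midpoints relative to the nearest protein-coding 5' end (horizontal axis, kb, positive downstream) as a percentage of the clusters of each class in bins of 500 bp. All 3 classes rise within the first kilobase after the 5' end, and 79.0% of late, 80.1% of persistent and 73.2% of transient clusters lie downstream.

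By the canonical transcript of the nearest gene, 348 midpoints were in intron 1 (43.5%, interval 40.1 to 47.0), 154 in a later intron, 26 in exon 1 and 44 in a later exon. Another 197 lay before the canonical transcript and 25 past its end, and 6 genes had no canonical transcript. In persistent clusters the intron 1 share was 36.8% (interval 32.3 to 41.6) and later exons held 11.9% against 5.50%, values that were not tested. The nearest genes had a median length of 22584 bp, against 27568 bp for all protein-coding genes.

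The gene starts with a late cluster also had a higher density of 10 min peaks than other gene starts. Over 401 genes of 30 kb or more with a late cluster, the number of peak summits from the 5' end to 5 kb downstream was 2.37 and 2.48 times the autosomal mean of the library in the 10 min replicates and 2.96 and 4.43 times in the 20 min replicates. Over 8699 genes with none the same density was 1.35 and 1.28 at 10 min and 1.58 and 1.54 at 20 min. From 10 to 30 kb downstream the genes with a late cluster were still at 1.59 and 1.38 at 10 min and 1.77 and 1.58 at 20 min. Genes with a persistent cluster, some of which also had a late one, reached 2.84 and 3.24 at 10 min within the first 5 kb. The lists of both times entered the rule, so these densities are a description. The excess over other genes was present at both times and also beyond the 5 kb window.

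**Figure D4:**
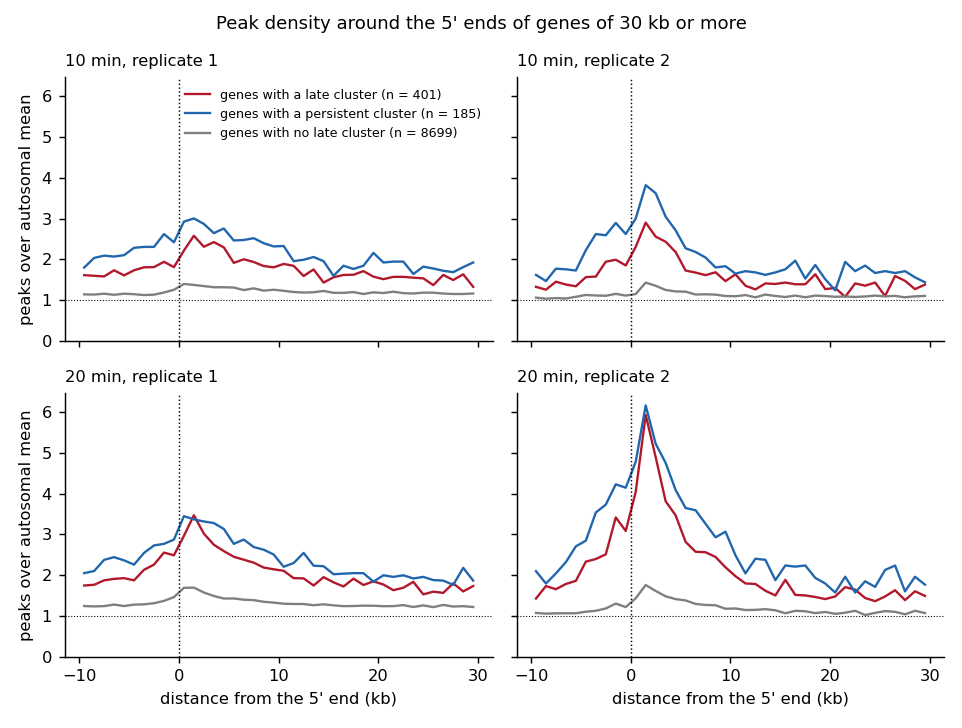
Peak summits per kilobase around the 5' ends of protein-coding genes of 30 kb or more, as a multiple of the autosomal mean of each library (vertical axis), against the distance from the 5' end (horizontal axis, kb, positive downstream). Genes with a late cluster (n = 401) lie above genes with none (n = 8699) in all 4 libraries, with averages over the first 5 kb downstream of 2.37 and 1.35 in the first 10 min library.

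The GC content of the members was lower farther downstream of the 5' end, as it was for genes in general. In windows reaching 150 bases to either side of the midpoints the median GC content was 53.8% in the first kilobase downstream, 43.9% in the second and 42.9% in the third, while windows of the same length 0.5, 1.5 and 2.5 kb downstream of all protein-coding 5' ends had medians of 58.5%, 47.2% and 45.5%. These are fixed offsets and do not follow the spread of the members, of which 103 of the 142 in the first kilobase lay beyond its first 500 bp, and at 1.0 kb the median of all genes was 49.8%. The motif GGGCGG, the core of the GC box bound by Sp1-type factors, was searched as letters on the sense strand and occurred in 35.9% of members in the first kilobase and in 10.1% in the second, while of all genes 37.9% had it at 0.5 kb, 20.8% at 1.0 kb and 13.8% at 1.5 kb. The letters GGGG on the same strand occurred in 69.7% and 59.8% of members, and in 78.3% of all genes at 0.5 kb and 60.5% at 1.5 kb.

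G exceeded C on the sense strand in 395 of the 632 downstream members (62.5%, interval 58.7 to 66.2). The share was 58.0% of all genes at 1.5 kb. Upstream members had G over C in 69 of 168 (41.1%). Such an excess of G on the sense strand after the 5' end is a general feature of human genes and is associated with RNA-DNA hybrids. Persistent clusters had it in 238 of 331 (71.9%, interval 66.8 to 76.5), and the difference, late minus persistent, was -9.40 points (Fisher's exact test, adjusted p = 0.0137). Late and transient clusters, the latter at 280 of 431 (65.0%), differed by -2.47 points (Fisher's exact test, adjusted p = 0.582), and without 10 min replicate 2 this difference was 6.74 points and passed the test (exact test, adjusted p = 0.0296). The difference to persistent clusters kept its sign under all 17 other settings but passed the test under 6 of them, and with 500 bases to either side of the midpoint it was -4.05 points (exact test, adjusted p = 0.399). It was -6.75 points without 10 min replicate 1, -0.310 without 10 min replicate 2 and -4.96 without 20 min replicate 1, none of which passed the test. With the replicate number as a block it was -4.09 points (exact test, adjusted p = 0.607).

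Divergent gene pairs, in which a second protein-coding gene starts on the other strand within 1 kb upstream, differed in share between the classes by less than the test could resolve, with 1 exception when a library was left out. They made up 84 of 800 members (10.5%, interval 8.56 to 12.8), 40 of 413 persistent clusters (9.69%) and 51 of 589 transient clusters (8.66%), with exact test adjusted p-values of 0.690 and 0.435. Without 10 min replicate 1 the difference to transient clusters was 3.91 points and passed the test (exact test, adjusted p = 0.00429). Of all protein-coding 5' ends 8.62% were of this kind. *FTSJ3*, a ribosomal RNA methyltransferase, and *PSMC5*, an ATPase subunit of the proteasome, both start within 5 kb of the seventh-ranked cluster, which is not one of the 84 by this rule, and whose reverse folds were 10.8 and 5.79 at 10 min and 18.2 and 8.61 at 20 min.

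The members lay at most 5 kb from the 5' ends of 958 protein-coding genes, which is 5.02% of the 19095 such genes away from gaps. Persistent clusters marked 492 genes (2.58%) and transient clusters 680 (3.56%). Both a late and a persistent cluster were found at 95 genes, and both a late and a transient one at 129, while 751 had late clusters only. A member had more than 1 protein-coding 5' end within 5 kb in 207 cases, so the genes are not all independent of each other.

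Several genes carried more than 1 late cluster, 88 of 958 in all and 10 with at least 3. *SETD5*, a chromatin regulator mutated in intellectual disability, had 4, centred 4284 and 2145 bp upstream and 1377 and 4276 bp downstream. The cluster 1377 bp downstream had no reverse peak and a single forward peak, with a fold of 3.46, at 10 min, and the cluster 4284 bp upstream had reverse folds of 6.23 with no listed peak in replicate 2 at 10 min and 11.8 and 11.3 at 20 min. *PNRC1*, a nuclear receptor coactivator, had 3. *POLR2A*, the largest subunit of RNA polymerase II, had 2 in intron 1, at 542 and 2154 bp. The first had reverse folds of 15.8 and 6.95 at 10 min and 21.4 and 9.15 at 20 min and forward folds of 3.68 with no listed peak in replicate 2 at 10 min and 10.3 and 9.12 at 20 min, so that the forward strand separated the times and the reverse strand did so within each replicate only.

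Lists of genes drawn up by function were set beside the share of all protein-coding genes, with no test. Of 21 lists, 17 had a larger share of genes with a late cluster than the 5.02% of all genes, and 4 had a smaller one. The lists were chosen with earlier results of these data known, so this tally depends on that choice. Much the same lists had many persistent clusters, and 13 had more genes with late than with persistent clusters, 7 fewer and 1 as many.

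**Figure D5:**
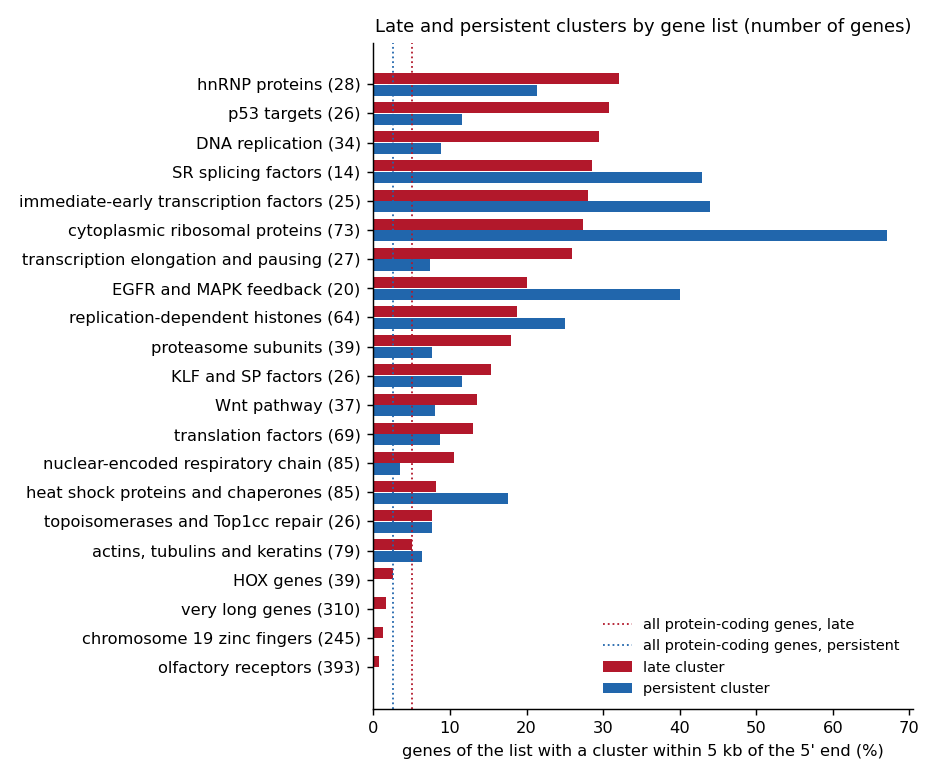
Share of the genes of each list (horizontal axis, %; number of genes in parentheses) with a late or a persistent cluster within 5 kb of the 5' end. Dotted lines mark all protein-coding genes, at 5.02% for late and 2.58% for persistent clusters; the list of hnRNP proteins has the highest late share, 32.1%, and that of ribosomal proteins the highest persistent share, 67.1%.

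Genes of the translation machinery were often marked, but ribosomal protein genes more by persistent than by late clusters. Of 73 cytoplasmic ribosomal protein genes, which are short and among the most transcribed genes of any cell, 20 (27.4%) had a late cluster, 49 (67.1%) a persistent one and 60 either. *RPLP2*, a protein of the ribosomal stalk, had reverse folds of 7.89 and 4.05 at 10 min and 10.5 and 9.69 at 20 min, and forward folds of 6.96 and 7.498 against 13.9 and 9.65. Both strands separated the times. *RPL24*, of the large subunit, had reverse folds of 4.57 with no listed peak in replicate 2 at 10 min and 9.55 and 6.46 at 20 min. *RPL27A* was high in 1 library of each time, with reverse folds of 8.30 and 19.7 at 10 min and 13.6 and 17.2 at 20 min. *RPL11*, which also binds the p53 regulator MDM2, had reverse folds of 12.04 and 9.84 at 10 min and 24.1 and 11.8 at 20 min, with the second 20 min value inside the 10 min range. Of 69 translation factors, 9 (13.0%) had a late and 6 a persistent cluster. *EEF1G*, a subunit of elongation factor 1, had 2 late clusters, and the first, in intron 1 at 1249 bp, had reverse folds of 3.32 and 6.95 at 10 min and 9.09 and 9.69 at 20 min and forward folds of 5.73 with no listed peak in replicate 2 against 15.7 and 9.12. Both times were apart on both strands there.

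RNA-binding proteins of splicing were also well represented. Of 28 hnRNP genes, whose products package nascent transcripts, 9 (32.1%) had a late and 6 a persistent cluster, and of 14 SR splicing factor genes 4 (28.6%) had a late and 6 a persistent one. *SRSF7* had no reverse peak at 10 min and reverse folds of 7.73 and 6.998 at 20 min, 406 bp downstream in intron 1, while its forward folds of 5.32 and 12.1 at 10 min overlapped those of 27.3 and 8.58 at 20 min. *HNRNPR* had no reverse peak in replicate 1 and a reverse fold of 6.95 in replicate 2 at 10 min and 7.27 and 10.2 at 20 min. *PCBP1* went the other way on the reverse strand in replicate 1, with 15.4 at 10 min and 11.4 at 20 min.

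Among inducible transcription factors, 7 of 25 immediate-early genes (28.0%) had a late and 11 a persistent cluster. Besides *JUND* these included *SRF*, the serum response factor, with 2 late clusters, the first in intron 1 with reverse folds of 13.7 and 13.9 at 10 min and 15.0 and 20.5 at 20 min. The *EGR1* cluster lay 1882 bp upstream and had no forward peak at 10 min and forward folds of 8.07 and 5.90 at 20 min. *JUN* had reverse folds of 6.23 and 9.26 at 10 min and 6.36 and 7.54 at 20 min, which overlapped. Feedback genes of EGFR and MAPK signalling had a late cluster at 4 of 20 and a persistent one at 8, and at *EREG*, which encodes the ligand epiregulin, the forward folds were 4.50 with no listed peak in replicate 2 at 10 min and 15.2 and 7.51 at 20 min. KLF and SP factors had 4 of 26 with a late cluster and 3 with a persistent one.

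Targets of p53, the transcription factor of the DNA damage response, were one of the 13 lists with more late than persistent genes, and late clusters marked more genes overall. Of 26 p53 target genes 8 (30.8%) had a late and 3 (11.5%) a persistent cluster. None was in both sets, and of all 958 genes with a late cluster only 95 (9.92%) also had a persistent one. *BBC3*, the proapoptotic factor PUMA, had reverse folds of 7.06 and 4.63 at 10 min and 11.4 and 8.07 at 20 min, 3882 bp downstream in intron 1. *GADD45A*, a growth arrest gene, had peaks in replicate 2 only at 10 min, with a reverse fold of 9.26 and a forward fold of 6.92, and at 20 min had reverse folds of 10.5 and 6.46 and forward folds of 17.5 and 10.2. *SESN2*, a regulator of mTORC1, had 2 late clusters, and at the one in intron 1 the only 10 min peak was a reverse peak of 5.79 in replicate 2, against reverse folds of 6.36 and 4.31 at 20 min.

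Of 27 genes of transcription elongation and pausing 7 (25.9%) had a late and 2 a persistent cluster. They included the kinase and cyclin of P-TEFb, which releases paused polymerase, and their inhibitor. *CDK9* had 2 late clusters, and at 3264 bp downstream the only 10 min peak was a reverse peak of 7.06 in replicate 1, against reverse folds of 14.1 and 4.31 and forward folds of 5.38 and 5.36 at 20 min. *CCNT1*, the cyclin, had no forward peak in replicate 1 and a forward fold of 3.46 in replicate 2 at 10 min and 16.6 and 6.44 at 20 min. *HEXIM1*, the inhibitor, had reverse folds of 13.3 with no listed peak in replicate 2 at 10 min and 13.2 and 6.46 at 20 min, which overlapped.

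Of 34 DNA replication genes 10 (29.4%) had a late and 3 a persistent cluster. *CDT1*, a licensing factor for replication origins, had reverse folds of 3.74 and 5.79 at 10 min and 27.3 and 8.61 at 20 min, and its forward folds of 6.96 and 2.88 overlapped those of 6.27 and 5.90. *RFC2*, a subunit of the clamp loader, had 2 late clusters, and in intron 1 its forward folds were 6.55 and 4.61 at 10 min and 12.1 and 7.51 at 20 min. *CDC6*, another licensing factor, was higher at 10 min on the forward strand, at 16.4 and 10.4 against 7.62 and 8.58. Of 26 topoisomerase and Top1 repair genes 2 (7.69%) had a late cluster, among them *EME1*, which encodes a subunit of a structure-specific nuclease, and 2 had a persistent one.

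Housekeeping lists varied. Proteasome genes, drawn by the start of the symbol and so including the recombination cofactor *PSMC3IP*, had a late cluster at 7 of 39 (17.9%) and a persistent one at 3. Respiratory chain genes had 9 of 85 (10.6%) and 3, and *ATP5F1B*, a subunit of ATP synthase, had forward folds of 5.32 and 4.61 at 10 min and 13.0 and 15.0 at 20 min and reverse folds of 4.98 with no listed peak in replicate 2 against 8.64 and 10.8, apart on both strands. Chaperones had 7 of 85 (8.24%) with a late and 15 with a persistent cluster. Actin, tubulin and keratin genes had 4 of 79 (5.06%), near the share of all genes. In the replication-dependent histone list 12 of 64 genes (18.8%) had a late and 16 a persistent cluster, but these genes lie side by side in clusters and have near-identical copies, so that neighbouring genes share break clusters and reads may have been lost or misplaced.

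Wnt pathway genes, relevant to a colorectal line, had a late cluster at 5 of 37 (13.5%) and a persistent one at 3. *TCF7L2*, the main partner of beta-catenin in the colon, had reverse folds of 8.30 and 9.26 at 10 min and 15.5 and 4.84 at 20 min, with the 10 min values inside the range at 20 min. The 4 lists below the late share of all genes were low in both classes. Olfactory receptors had a late cluster at 3 of 393 (0.763%), chromosome 19 zinc fingers at 3 of 245 (1.22%) and HOX genes at 1 of 39 (2.56%), and none of these 3 lists had a persistent one. Genes of 500 kb or more had 5 of 310 (1.61%) with a late and none with a persistent cluster.

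Nearness to persistent clusters did not separate late clusters at gene starts from those elsewhere in a stable direction. A persistent cluster lay within 10 kb of 113 of 800 members (14.1%, interval 11.9 to 16.7) and of 179 of 1022 late clusters elsewhere (17.5%), a difference of -3.39 points that did not pass the test (Fisher's exact test, adjusted p = 0.107). The same peak lists defined the persistent clusters and both groups of late clusters, so the test is not independent of the choice. The median distance from a member to the nearest persistent cluster was 511829 bp. The sign of the difference in shares changed when gene starts were taken up to 10 kb, to 5.86 points (exact test, adjusted p = 0.00310). It also changed when any 1 of the 4 libraries was left out, where unreplicated sites of the remaining library stand for its time. The difference was then 1.10 points without 10 min replicate 1 and 4.79 without 10 min replicate 2. It was 9.30 without 20 min replicate 1 and 6.67 without 20 min replicate 2, and 1.61 with the replicate number as a block.

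The share of all sites of a library that lay at gene starts was the one quantity that could be compared between the times with libraries as replicates. It was 11.2% and 9.92% at 10 min and 15.5% and 17.9% at 20 min. Both 20 min libraries were above both 10 min libraries, and the means of 10.5% ± 0.877 (SD, n = 2) and 16.7% ± 1.65 (SD, n = 2) differed by 6.15 percentage points. The two-sided exact permutation test gave p = 0.333, the smallest value that 2 libraries against 2 allow. With peaks of a −log10 q of at least 10 the difference was 13.4 points, but the times were no longer apart (exact permutation p = 0.667). The difference was 4.36 points within replicate 1 and 7.93 points within replicate 2. The second replicate, which had the fewer sites at each time, had the lower share at 10 min and the higher share at 20 min.

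Just inside the 5 kb limit lay clusters at *TFAM*, *SFR1* and *CCT5*, at 4961 to 4964 bp, with 20 min folds of 3.58 to 12.7. Just outside lay 3 clusters at 5013 to 5018 bp with 20 min folds of 2.69 to 37.3. Among members, 97 lay within 1 kb of a replicated 10 min site without overlapping it, the nearest of them, at *RFWD3*, 4 bp from one and that at *AL590452.1* in direct contact with one.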

How the data were processed

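END-seq libraries of treated HCT116 cells were analysed from 8 narrowPeak lists, 1 per library and strand. As the study's methods state, the authors trimmed reads with Trim Galore 0.6.5, aligned them to hg19 with Bowtie2 2.5.0, kept proper pairs of mapping quality 30 or more, duplicates included, with SAMtools 1.16.1, split them by orientation and called peaks with MACS2 2.2.7.1 at q 0.05 with the control as input. Duplicates from PCR therefore count as fragments. The call used no local background, so the expected height was constant along each list. The deposited columns hold the fold ratio of summit height, the −log10 of p and q values and a score, and the score was used only in reading the files. The fold values lay on a grid that gave whole fragment heights.

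Sites and classes were formed as given in the report, and genes, transcripts and sequence came from GRCh37 with GENCODE release 44 lifted to it. The members and gene lists were chosen with earlier results of these data known. Members were named by the nearest protein-coding 5' end, and those named are the 20 with the best rank in their weaker 20 min library, up to 6 genes per list in that order, and the 3 on either side of the 5 kb limit. *NHP2*, *SETD5* and *PNRC1* were named after their values were seen. Sequences are of the first 6 such members not on chromosome 8 and without an annotated UTR in the 300 bases, less 1 that is not reported here, as are a few genes that the rule names. Shares were compared by two-sided Fisher's exact tests with Benjamini-Hochberg adjustment over 8 comparisons, of which the overlap with 10 min sites is given without its p because the rule used these lists, and library shares by an exact permutation test (scipy 1.17.1). The p of that overlap stayed in the adjustment, which can lower the other adjusted values. Settings in which it could not be computed adjust over the remaining comparisons. Wilson intervals are at 95% and cover counting error only. The study's methods list 2 experiments, each with all conditions, and the labels give numbers 1 and 2 without tying them to these. The code was tested on simulated data. Alternatives varied the peak threshold, pairing, overlap, gaps, distance, annotation and libraries.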

Additional observations from a re-analysis of the deposited data

How the results depend on the processing

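The number of members and of genes depended on how sites were called. Against 800 clusters and 958 genes there were 114 and 141 with peaks of a −log10 q of at least 10, 335 and 416 when absence at 10 min meant no site of either library, and 453 and 548 within 2 kb of the 5' end. With the replicate number as a block, which forms the classes within same-numbered libraries, there were 410 clusters and 507 genes. The study's methods list 2 experiments, each with a control and both times, while the labels do not tie the replicate numbers to them, so the block is paired only if they do. It ended the call of the sense-strand difference to persistent clusters and changed no other call. Leaving out 1 library gave 495 to 12197 clusters and 598 to 9070 genes. Of the 20 named members, 15 overlapped a member at a −log10 q of at least 10, 13 within 2 kb, 3 under the block and 2 when absence meant no site of either library. The share of sites at gene starts kept its sign under all 16 alternatives, at 3.33 to 13.4 points and 4.98 to 7.31 points without 1 library, and under the block was 6.15 points. The times were not apart at a −log10 q of at least 10 (exact permutation p = 0.667).

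For the downstream share, late minus persistent clusters changed sign at a −log10 q of at least 10 (3.27 points), with lists of equal length (2.11) and with an overlap of 50% of the shorter site (0.253). The difference ran from -16.5 to 0.196 without 1 library, where unreplicated sites of the remaining library stand for its time. Late minus transient changed sign at a −log10 q of at least 3 (-2.21) and with equal lists (-1.16), and no longer passed at a −log10 q of at least 10 (5.09), with pairing under 50 bp (4.33) or 300 bp (4.13), with the 50% overlap (4.60) and within 2 kb (4.40). It ran from -7.09 to 18.9 without 1 library. The divergent pair difference to persistent clusters was -1.20 at a −log10 q of at least 10 and -0.372 within 2 kb upstream, with -3.18 to 1.99 without 1 library. That to transient clusters was -5.44 and, with equal lists, -0.170, with -0.826 to 3.91 without 1 library, the last passing the test.

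The sense-strand difference to persistent clusters fell short of the test at a −log10 q of at least 3 (-7.10 points) and 10 (-0.687), with equal lists (-6.002), pairing under 50 bp (-7.94) or 300 bp (-2.89), within 2 kb (-7.65), under the block (-4.09) and with 500 bases to either side of the midpoint (-4.05). It ran from -11.4 to -0.310 without 1 library. The difference to transient clusters changed sign at a −log10 q of at least 10 (3.48), with equal lists (2.69), with absence from either library (0.542), with transcript 5' ends (1.199) and under the block (0.517), and ran from -3.35 to 6.74 without 1 library, the last passing the test. Nearness to a persistent cluster passed the test at a −log10 q of at least 3 (-7.32), with pairing under 50 bp (-7.06), without the exclusion near gaps (-3.96) and within 25 kb (-6.96). It changed sign with absence from either library (0.133), within 10 kb of the 5' end (5.86) and under the block (1.61), and ran from 1.10 to 9.30 without 1 library. The overlap with a 10 min site was smaller at a −log10 q of at least 3 (6.75) and 10 (7.46) and ran from 10.9 to 18.8 without a 20 min library. It could not be computed under the block, with absence from either library or without a 10 min library, which fix it by construction. The cause of these changes was not tested.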

Other observations

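Late clusters at gene starts were unevenly spread over the chromosomes. Chromosome 17 had 100 of its 1180 protein-coding genes (8.47%) marked by one, from 87 members, and chromosome 10 had 57 of 735 (7.76%). Chromosome 8 followed at 6.96% and chromosome 16 at 6.45%. These shares were not set against the density of all peaks on each chromosome. Chromosome 18 had 7 of 258 (2.71%) and chromosome 4 had 22 of 751 (2.93%). Persistent clusters marked 5.68% of the genes of chromosome 17 and 2.99% of those of chromosome 10. By gene length, 6.46% of genes of 5 to 10 kb had a late cluster, 5.91% of those of 25 to 50 kb and 1.38% of those of 250 kb or more. The corresponding shares for persistent clusters were 3.796%, 2.43% and 0.688%. Genes of 10 to 25 kb had a late cluster in 5.41% and a persistent one in 2.65%, so the late share did not fall steadily with length. These values were not tested.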
